A study of Mus musculus with 9 samples.

Results

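Transcripts of 45 genes that encode subunits of glutamate and GABA receptors were measured in the striatum of mice. The genes are the protein-coding ones with symbols of the Gria, Grik, Grin, Grid, Grm, Gabr and Gabbr families, and they were found by symbol among 54532 gene IDs. They hold 4 AMPA, 5 kainate, 7 NMDA and 2 delta subunits, 8 metabotropic glutamate receptors, 17 subunits of GABA-A receptors and 2 of the GABA-B receptor. The GABA-A subunits are 5 alpha, 3 beta, 3 gamma and 6 others, which are Gabrd, Gabre, Gabrq and Gabrr1 to Gabrr3.

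Polyadenylated RNA was sequenced in 9 striatum libraries, 3 each from cGAS-deficient mice (cGAS KO), STING-deficient mice (STING KO) and wild-type mice (WT). Both knockout lines were made with CRISPR-Cas9 on a C57BL/6J background, and all brains were taken after ischemic stroke, per the series record. The age, the time after the stroke and the cells in which each gene was lost do not appear in the labels, and libraries of uninjured brains were not analysed here. The enzyme cGAS detects cytosolic DNA and produces cGAMP, a messenger bound by the membrane protein STING. Whether each replicate was its own animal is not stated, so p-values measure only the spread between these libraries, which may be technical.

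Glutamate is the main excitatory transmitter of the brain and GABA the main inhibitory one. AMPA, kainate and NMDA receptors are cation channels assembled from several subunits, whereas metabotropic glutamate receptors act through G proteins. GABA-A receptors are chloride channels, also of several subunits, and the GABA-B receptor is a G protein-coupled pair of a binding and a coupling subunit. In the striatum, medium spiny neurons, which are themselves GABAergic, receive glutamate from the cortex and thalamus.

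Library totals ranged from 14129021 to 21286775 counts. Each genotype had 1 library with fewer weakly detected genes than the rest. Genes with 1 to 9 counts numbered 2280 to 4723 in replicate 2 of cGAS KO, replicate 2 of STING KO and replicate 3 of WT, against 7096 to 7927 in the other 6, and these 3 are named here by their low complexity. Ribosomal protein genes held 0.234% to 0.606% of the counts there and 0.691% to 0.904% in the rest. Levels in CPM are counts scaled to library size. Cgas had 1.102, 0.377 and 0.262 CPM in cGAS KO libraries 1 to 3, below the 1.40, 2.63 and 3.18 CPM of the WT libraries. Tmem173, which encodes STING, had 2.18, 1.05 and 1.85 CPM in STING KO, against 4.06, 3.01 and 1.34 CPM in WT, so it overlapped and did not check that label. Markers of medium spiny neurons were detected in all 9 libraries, but their summed level was 6327 CPM in WT replicate 3, against 10330 to 12910 CPM in the other 8 libraries. Of the 14 markers, 12 were lowest in WT replicate 3. Of 13 markers of cortical and other non-striatal neurons, 10 were highest there, and 0 were absent from any library. Their summed level was 237.3 to 673.9 CPM in cGAS KO, 427.4 to 801.3 CPM in STING KO and 226 to 1387 CPM in WT.

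**Figure D1:**
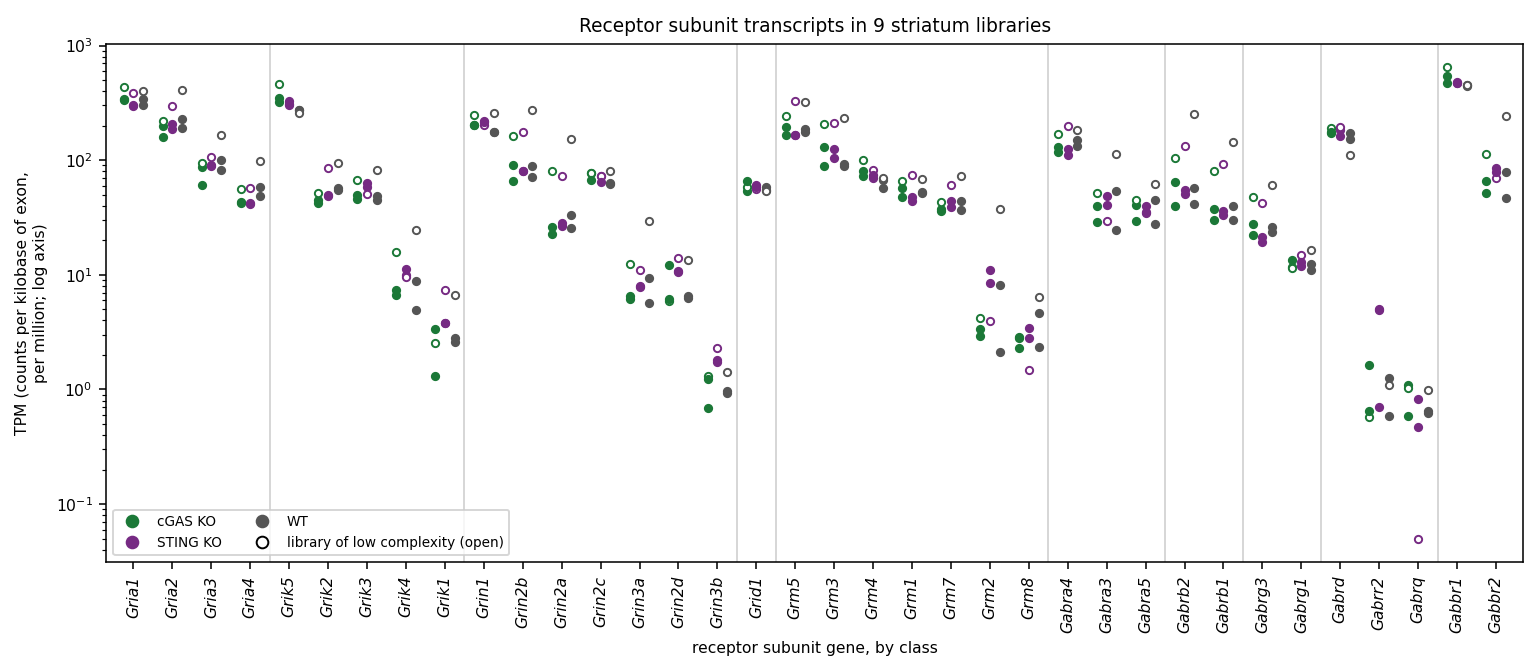
Levels of 36 receptor subunit genes in TPM (counts per kilobase of exon, scaled to 1 total in all libraries) on a log axis, by receptor class and, within a class, by mean WT level. Each point is 1 library, open where it is of low complexity, in the order cGAS KO, STING KO and WT from left to right. Lines divide AMPA, kainate, NMDA, delta and metabotropic glutamate receptors and GABA-A alpha, beta, gamma and other subunits from GABA-B subunits. The genes left out include the 5 under 0.5 TPM in WT, and Gabrq in STING KO replicate 2, with 0 counts, is drawn at 0.05. Gabbr1 stands highest, and open points stand above the filled ones for Grin2a, Grin2b, Gabrb1 and Gabrb2.

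Gabbr1, the subunit of the GABA-B receptor that binds GABA, had the highest level per exon length of the 45 genes in WT. Levels between genes are given in TPM, that is, counts divided by the exon length of the gene and scaled to 1 total in all libraries. The order of genes depends on the length used. Gria2 has 15548 exon bases, of which 2804 are coding, and Gabbr1 7764, of which 3364 are coding. Not divided by length, Gria2 averaged 1017 ± 309 CPM in WT and Gabbr1 855.5 ± 95.4 CPM. Levels per coding length were not compared. Gabbr1 was at 551.9 ± 86.8 TPM in cGAS KO, 473.4 ± 5.95 TPM in STING KO and 451.9 ± 5.26 TPM in WT (SD, n = 3 each, as for all means below). Other high levels in WT were those of Gria1 (347.2 ± 48.2), Gria2 (276.5 ± 117), Grik5 (270.1 ± 8.44), Grm5 (227.8 ± 80.9) and Grin1 (204.4 ± 48.2 TPM). From Gria1 to Grin1 the difference between neighbours in this list was smaller than the larger SD of the 2, so the order among them was not resolved. In WT 15 genes averaged at least 100 TPM, 18 lay between 10 and 100 TPM, 5 between 1 and 10 TPM, and 7 under 1 TPM.

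Among AMPA receptor genes, which encode the fast excitatory channel, Gria1 and Gria2 led in each genotype. Gria2, whose edited subunit keeps the channel closed to calcium, averaged 193.1 ± 30.04 TPM in cGAS KO, 229.9 ± 58.4 TPM in STING KO and 276.5 ± 117 TPM in WT. Gria1 averaged 370.8 ± 55.0, 326 ± 48.4 and 347.2 ± 48.2 TPM in the same genotypes. Grik5, a kainate receptor subunit that needs a partner of the Grik1 to Grik3 group to form a channel, was the leading kainate gene in all 9 libraries, at 260.3 to 459.9 TPM. Grik2 followed at 42.3 to 95.3 TPM and Grik3 at 44.8 to 81.3 TPM, which overlapped. Grik1 stayed at 1.31 to 7.33 TPM. Grin1, the subunit that every NMDA receptor contains, was at 175.4 to 260 TPM in the 9 libraries. By TPM it was above Grin2b except in WT replicate 3, where Grin2b reached 271.7 TPM. Exon lengths are 9700 bases for Grin1 and 24842 for Grin2b. In CPM, not divided by length, Grin2b was the higher in all libraries but cGAS KO replicate 1 and STING KO replicates 1 and 3. Exons of Grin1, with 75237 counts over the 9 libraries, overlap those of an antisense gene, Grin1os, with 5646 counts. Of the delta receptors, which bind the synaptic organizer cerebellin, Grid1 was at 53.8 to 65.2 TPM.

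The metabotropic glutamate receptor with the highest WT level was Grm5, which couples to phospholipase C, at 165 to 326.7 TPM over the 9 libraries. Grm3, a receptor of neurons and astrocytes that lowers cyclic AMP, followed at 88.2 to 233.9 TPM. Grm6, the receptor of retinal ON bipolar cells, had 1 count in all 9 libraries together.

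Among the GABA-A receptor genes, Gabra4 was at 110.3 to 198.4 TPM. Gabrd, which encodes the delta subunit of extrasynaptic receptors and often pairs with Gabra4, was at 111.4 to 195.4 TPM. Gabrg1 was at 11.1 to 16.5 TPM. Exons of Gabra4 (chromosome 5, 71569749 to 71658308, minus strand, GRCm38) and Gabrb1 (71658113 to 72149037, plus strand) overlap. Whether the counting used strand is not stated, so reads in the overlap cannot be told apart.

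Too few counts to pass the expression filter of the test were found for 5 genes. Gabre had 62 counts over the 9 libraries, Gabrr1 20, Gabrr3 8, Gabra6 2 and Grm6 1. A count of 3, used here as a floor for counting error and not as the filter, was 0.141 to 0.212 CPM. Gabra6, known as the alpha subunit of cerebellar granule cells, had 0 counts in 7 of the libraries.

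Summed over the 26 glutamate receptor genes, the level was 2237 ± 418 TPM in cGAS KO, 2226 ± 391 TPM in STING KO and 2358 ± 754 TPM in WT. The 19 GABA receptor genes summed to 1580 ± 316, 1509 ± 218 and 1680 ± 549 TPM. Glutamate receptors took 57.8% to 60.3% of the sum of both in all 9 libraries, with means of 58.6% ± 0.84 in cGAS KO, 59.5% ± 0.69 in STING KO and 58.4% ± 0.73 in WT. The sums of both kinds were highest in each genotype in its library of low complexity. In bulk tissue, fewer cells of a type and less RNA per cell cannot be told apart.

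In cGAS KO striatum, Grm4 and Grik5 had the smallest p-values among the receptor genes that were higher than in WT, and Grm2 the smallest among those that were lower, but none of the 40 genes tested passed the test. Grm4 (chromosome 17, 27422387 to 27521403) encodes a presynaptic receptor found on the terminals of striatal and cortical neurons. It stood at 111.7, 146.9 and 140.5 CPM in cGAS KO, against 101.8, 89.8 and 89.7 CPM in the 3 WT libraries, where CPM are scaled by TMM, a factor per library that aligns most genes. All 3 cGAS KO libraries lay above all 3 WT libraries. The log2 fold change was 0.50 (SE 0.16), and edgeR's quasi-likelihood test gave an unadjusted p = 0.0107 and an adjusted p = 0.9999 over 17821 genes.

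Grik5 (chromosome 7, 25009849 to 25072346) was at 425.4, 586.4 and 522.9 CPM in cGAS KO, against 362.7, 374.1 and 286.5 CPM in WT libraries. Again the groups did not overlap, and the log2 fold change was 0.58 (SE 0.19, edgeR unadjusted p = 0.0136, adjusted p = 0.9999). Gabbr1 was at 934.2, 1233 and 1215 CPM in cGAS KO, against 882.3, 934.7 and 749.6 CPM in WT, so cGAS KO replicate 1 and WT replicate 2 were nearly level. Its log2 fold change was 0.40 (SE 0.19).

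Without the 3 libraries of low complexity the log2 fold change of Gabbr1 was 0.24 (edgeR unadjusted p = 0.204). Gabrd and Grin2c were the other 2 of the 5 higher genes with the smallest p. Gabrd, at 127, 134.3 and 147.9 CPM in cGAS KO and 126.7, 115.1 and 68.2 CPM in WT, did not overlap, though the gap between cGAS KO replicate 1 and WT replicate 1 was small. Grin2c, an NMDA receptor subunit found in astrocytes and cerebellum, was at 98.9, 95.9 and 97.7 CPM in cGAS KO, against 81.4, 82.6 and 86.6 CPM in WT, with no overlap and little spread in either genotype. The log2 fold changes of Gabrd and Grin2c were 0.40 and 0.22. That of Gabrd was 0.17 without WT replicate 3 and 0.19 (edgeR unadjusted p = 0.243) without the 3 libraries of low complexity. Of the 14 markers of medium spiny neurons, 13 had positive fold changes in cGAS KO against WT, with a median of 0.26. Without the libraries of low complexity 10 were positive, with a median of 0.08. The part of these markers in the values of the higher receptor genes was not tested.

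On the lower side, Grm2 (chromosome 9, 106643095 to 106656082), a presynaptic receptor of cortical terminals that lowers transmitter release, was at 4.18, 5.06 and 4.13 CPM in cGAS KO, against 2.66, 10.5 and 39.1 CPM in WT. The 3 WT values spread more widely than the difference between the genotypes, and WT replicate 1 lay below every cGAS KO library. Its log2 fold change was -1.96 (SE 0.79, edgeR unadjusted p = 0.0343, adjusted p = 0.9999). Without WT replicate 3 it was -0.56, and without the 3 libraries of low complexity -0.65 (edgeR unadjusted p = 0.255). The summed level of the 13 markers of cortical and other non-striatal neurons was 539.8, 673.9 and 237.3 CPM in cGAS KO and 226, 604.9 and 1387 CPM in WT, in the order of replicates 1 to 3, and their part in the value of Grm2 was not tested.

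Grik2, a channel-forming kainate receptor subunit, was at 151.1, 167.9 and 162.5 CPM in cGAS KO, against 193.4, 191.1 and 268.7 CPM in WT. It was the 1 receptor gene with all cGAS KO libraries below all WT libraries, with a log2 fold change of -0.44 (SE 0.24, edgeR unadjusted p = 0.0923). Without the libraries of low complexity its log2 fold change was -0.29 (edgeR unadjusted p = 0.0467, adjusted p = 0.971). Gria3 and Gria4, both AMPA subunits, had log2 fold changes of -0.38 and -0.39, and Grm8, a presynaptic receptor, one of -0.59. For these 3 genes the genotypes overlapped, and without WT replicate 3 the values were -0.17, -0.16 and -0.38.

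**Figure D2:**
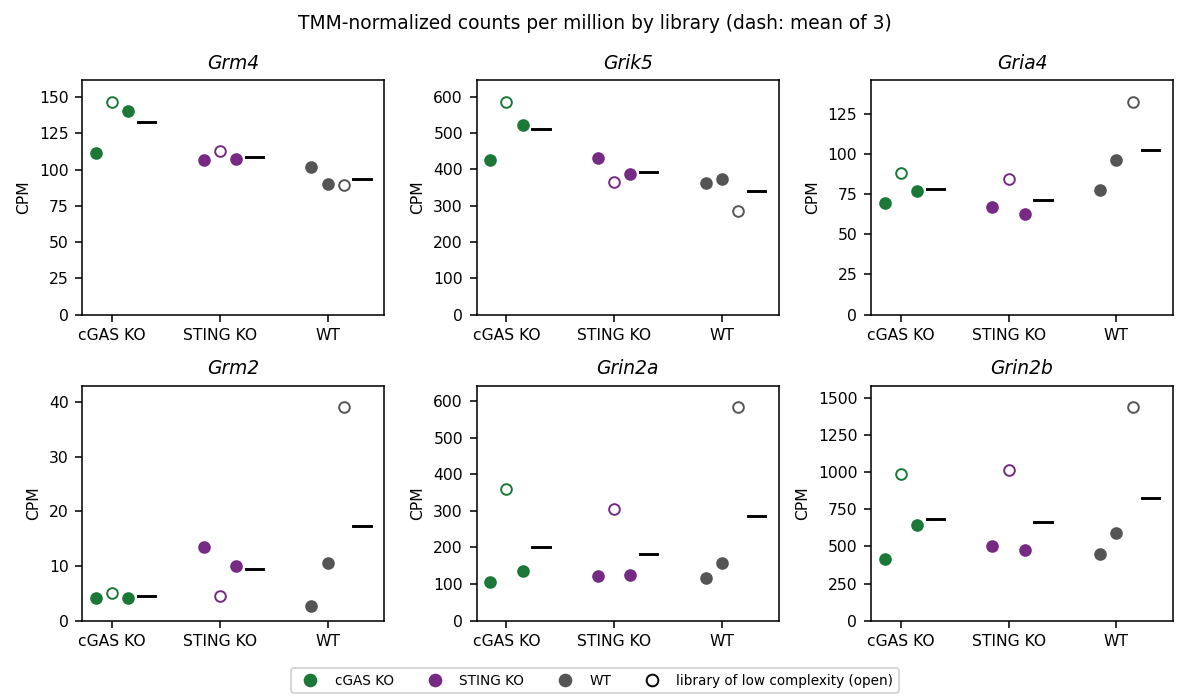
CPM of 6 receptor genes in each library, on linear axes from 0, with cGAS KO, STING KO and WT from left to right. Points are libraries, open for those of low complexity, and the dash is the mean of the 3. Grm4 and Grik5 lie higher in all cGAS KO than in all WT libraries, while Grin2a and Grin2b are highest in the open points of each genotype and reach 582.3 and 1438 CPM in WT replicate 3.

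Over all 17821 genes tested, 0% were called in cGAS KO against WT, in either direction, and 0 of the 40 receptor genes were called by edgeR. DESeq2 and limma-voom, without and with library quality weights, also called 0 receptor genes, where over all genes they called 1, 0 and 4. At an unadjusted p under 0.05 in edgeR, 2 receptor genes were higher (Grm4 and Grik5) and 1 was lower (Grm2), where 1.04% and 0.982% of all genes were. Fold changes were positive for 18 of the 40, against 48.5% of all genes, with a median log2 fold change of -0.04 beside -0.01 for all genes. In 4 receptor genes (Grm4, Grik5, Gabrd and Grin2c) all 3 cGAS KO libraries lay above all WT libraries, and in 1 (Grik2) all lay below, where 4% of all genes did so in each direction. By class, 1 of 4 AMPA genes was positive. Of tested GABA-A genes, 0 of 4 alpha, 1 of 3 beta and 1 of 3 gamma genes were. Positive too were 4 of 7 NMDA genes and 3 of 3 tested genes of the other GABA-A group. So were 2 of 5 kainate, 2 of 2 delta, 3 of 7 tested metabotropic glutamate and 1 of 2 GABA-B genes. Without the 3 libraries of low complexity 3 of 3 beta and 2 of 3 gamma genes were positive. AMPA genes (1 of 4) and alpha genes (0 of 4) kept their counts there. The sign of the median was not stable. It was 0.17 without WT replicate 3, 0.05 without cGAS KO replicate 1 and 0.14 in limma-voom with library quality weights. Without all 3 libraries of low complexity it was 0.09, with 24 of the 41 receptor genes that passed the filter there positive, against 49.6% of all genes. In that fit 2 receptor genes were higher at an unadjusted p under 0.05 (Grm4 and Grik5) and 1 was lower (Grik2), beside 2.44% and 1.77% of all genes, and 0 were called.

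The letters upstream of the start sites are shown for 4 of the 10 receptor genes with the smallest p in cGAS KO against WT, those with a single RefSeq window of 250 bases that overlaps no annotated exon. They are from RefSeq's GRCm38.p6, 5′ to 3′ on the strand of the gene, and end at the base before the start. Capitals mark GGGCGG, the GC box bound by Sp-family factors, which was searched on both strands.
Gabbr1: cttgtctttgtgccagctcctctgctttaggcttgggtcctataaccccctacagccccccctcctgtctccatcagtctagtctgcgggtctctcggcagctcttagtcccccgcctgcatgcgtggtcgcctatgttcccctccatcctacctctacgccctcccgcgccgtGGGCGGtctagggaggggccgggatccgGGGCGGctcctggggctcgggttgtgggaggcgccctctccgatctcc
Grin2c: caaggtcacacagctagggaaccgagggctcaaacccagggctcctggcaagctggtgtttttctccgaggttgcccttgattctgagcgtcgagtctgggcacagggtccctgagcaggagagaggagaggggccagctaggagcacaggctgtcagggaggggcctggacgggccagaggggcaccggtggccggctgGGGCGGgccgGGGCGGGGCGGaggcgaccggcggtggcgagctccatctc
Grm2: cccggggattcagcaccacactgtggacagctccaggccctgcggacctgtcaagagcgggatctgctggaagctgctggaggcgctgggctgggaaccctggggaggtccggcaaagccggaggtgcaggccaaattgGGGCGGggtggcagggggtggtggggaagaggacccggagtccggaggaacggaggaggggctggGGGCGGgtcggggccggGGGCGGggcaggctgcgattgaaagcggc
Gria4: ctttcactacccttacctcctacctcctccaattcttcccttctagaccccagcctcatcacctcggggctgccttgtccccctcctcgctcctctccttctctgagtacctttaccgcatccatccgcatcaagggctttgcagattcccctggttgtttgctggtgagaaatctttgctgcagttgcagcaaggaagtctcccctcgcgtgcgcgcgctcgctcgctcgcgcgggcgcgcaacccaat
The windows are chr17:37045716-37045965 (plus strand), chr11:115267244-115267493, chr9:106656110-106656359 and chr9:4796235-4796484 (the last 3 on the minus strand). Gabbr1 held 2 GC boxes, Grin2c and Grm2 3 each, of which 2 overlap by 1 base in Grin2c, and Gria4 none, while all 4 were rich in G and C at 58.8% to 71.2%. RefSeq promoter windows were matched for 30 of the 45 genes, 37 windows in all. GGGCGG was in 17 of these 37 windows and in 32.7% of 32851 windows of the same length over the genome. The letters TATAAA were in 4 of the 37 and in 12.4% of all windows, and TGACGTCA, the full cyclic AMP response element, was in 0 of the 37 and in 1.55% of all windows. A match describes the letters and is not a binding site.

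In STING KO striatum, the AMPA subunit gene Gria4 had the smallest p among the receptor genes that were lower than in WT, and Gabrr2 among those that were higher, but none passed the main test. Gria4 (chromosome 9, 4417896 to 4796234), known in the brain from fast-spiking interneurons and from the thalamus, was at 67.0, 84.4 and 62.9 CPM in STING KO, against 77.6, 96.2 and 132.5 CPM in WT. STING KO replicate 2 overlapped with WT replicate 1. The log2 fold change was -0.52 (SE 0.22, edgeR unadjusted p = 0.0446, adjusted p = 0.9999). Of 21 alternative analyses, limma-voom with library quality weights gave Gria4 a log2 fold change of -0.52 and an adjusted p = 0.0498, the 1 call of a receptor gene in any of them. That analysis called 178 genes in all, 0.999% of those tested, where the main test called 0. Over the alternatives its adjusted p ranged from 0.0498 to 1, and without WT replicate 3 its log2 fold change was -0.29.

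Gabrr2 (chromosome 4, 33062999 to 33095865) encodes a rho subunit, known best from the retina. It was at 0.373, 2.44 and 2.52 CPM in STING KO, at 0.870, 0.302 and 0.393 CPM in cGAS KO, against 0.316, 0.698 and 0.495 CPM in WT. These levels stand on 6, 35 and 45 counts in STING KO libraries and 7, 13 and 7 counts in WT libraries. In STING KO replicates 2 and 3 it was above all other libraries and in replicate 1 it was not. The log2 fold change was 1.81 (SE 0.79, edgeR unadjusted p = 0.0468, adjusted p = 0.9999).

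Grin3b, an NMDA subunit known mainly from motor neurons of the brainstem and spinal cord, was at 1.49, 1.74 and 1.40 CPM in STING KO, against 0.813, 0.805 and 0.991 CPM in WT. All STING KO libraries lay above all WT libraries, with a log2 fold change of 0.83 (SE 0.49, edgeR unadjusted p = 0.123). It had 163 counts over the 9 libraries and overlaps exons of Tmem259, a gene on the other strand with 15438 counts, so its reads are uncertain. Grin2d, the NMDA subunit of interneurons, was at 17.7, 21.6 and 17.2 CPM in STING KO, against 11.1, 11.1 and 19.0 CPM in WT, with overlap through WT replicate 3.

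Grin2d had a log2 fold change of 0.46 (SE 0.33) over 9 libraries and of 0.66 (edgeR unadjusted p = 0.0300, adjusted p = 0.697) without the libraries of low complexity. It overlaps exons of an antisense gene, Gm45441. Grm4 was at 106.3, 113 and 107.5 CPM in STING KO, above the 101.8, 89.8 and 89.7 CPM of WT in each library, and had a log2 fold change of 0.22 (SE 0.16). Gabrd had a log2 fold change of 0.28, which was 0.05 without WT replicate 3. Of the 14 markers of medium spiny neurons, 13 had positive fold changes in STING KO against WT, with a median of 0.15. Without the libraries of low complexity 4 were positive, with a median of -0.10. The part of these markers in the values of the receptor genes was not tested.

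Also on the lower side were Grm8, Gabra3 and Grin3a, with log2 fold changes of -0.75, -0.62 and -0.67 and overlapping groups. Gabra3 was at 47.9, 27.0 and 38.9 CPM in STING KO, against 24.4, 56.0 and 94.5 CPM in WT. Grin3a was at 24.6, 31.6 and 23.1 CPM in STING KO, against 17.9, 30.5 and 77.8 CPM in WT. In both Gabra3 and Grin3a WT replicate 3 was the highest of the 9 libraries. Without it the log2 fold change of Grin3a was 0.12, and without the 3 libraries of low complexity that of Gabra3 was 0.11, both of the opposite sign. That of Grm8 was -0.45 without STING KO replicate 2.

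Of all genes tested in STING KO against WT, 0% were called, and 0 of the 40 receptor genes. At an unadjusted p under 0.05, 1 was higher (Gabrr2) and 1 was lower (Gria4), where 0.898% and 0.735% of all genes were. Positive fold changes were found for 12 of the 40 receptor genes, against 49.4% of all genes, and their median log2 fold change was -0.17 beside -0.0044 for all genes. All STING KO libraries lay above all WT libraries for 2 receptor genes (Grin3b and Grm4) and below for 0, where 3.4% and 3.67% of all genes did. None of the 4 AMPA genes had a positive fold change, nor did any of the tested 4 GABA-A alpha, 3 beta and 3 gamma genes. It was positive for 4 of 7 NMDA genes and 2 of 3 tested genes of the other GABA-A group. The fold change was also positive for 2 of 5 kainate, 1 of 2 delta, 2 of 7 tested metabotropic glutamate and 1 of 2 GABA-B genes. Without the 3 libraries of low complexity 0 of 4 AMPA, 1 of 4 alpha, 1 of 3 beta and 0 of 3 gamma genes were positive. Of the kainate genes 4 of 5 were positive there. Without WT replicate 3 the median was 0.05, and without the 3 libraries of low complexity it was -0.02, with 16 of 41 positive, against 50.2% of all genes. In that fit 1 receptor gene was higher at an unadjusted p under 0.05 (Grin2d) and 1 was lower (Gria4), beside 4.02% and 2.89% of all genes. None was called, where 0.0227% of all genes were. The cGAS KO and STING KO comparisons share the same 3 WT libraries, so a value that is high or low in those libraries enters both.

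**Figure D3:**
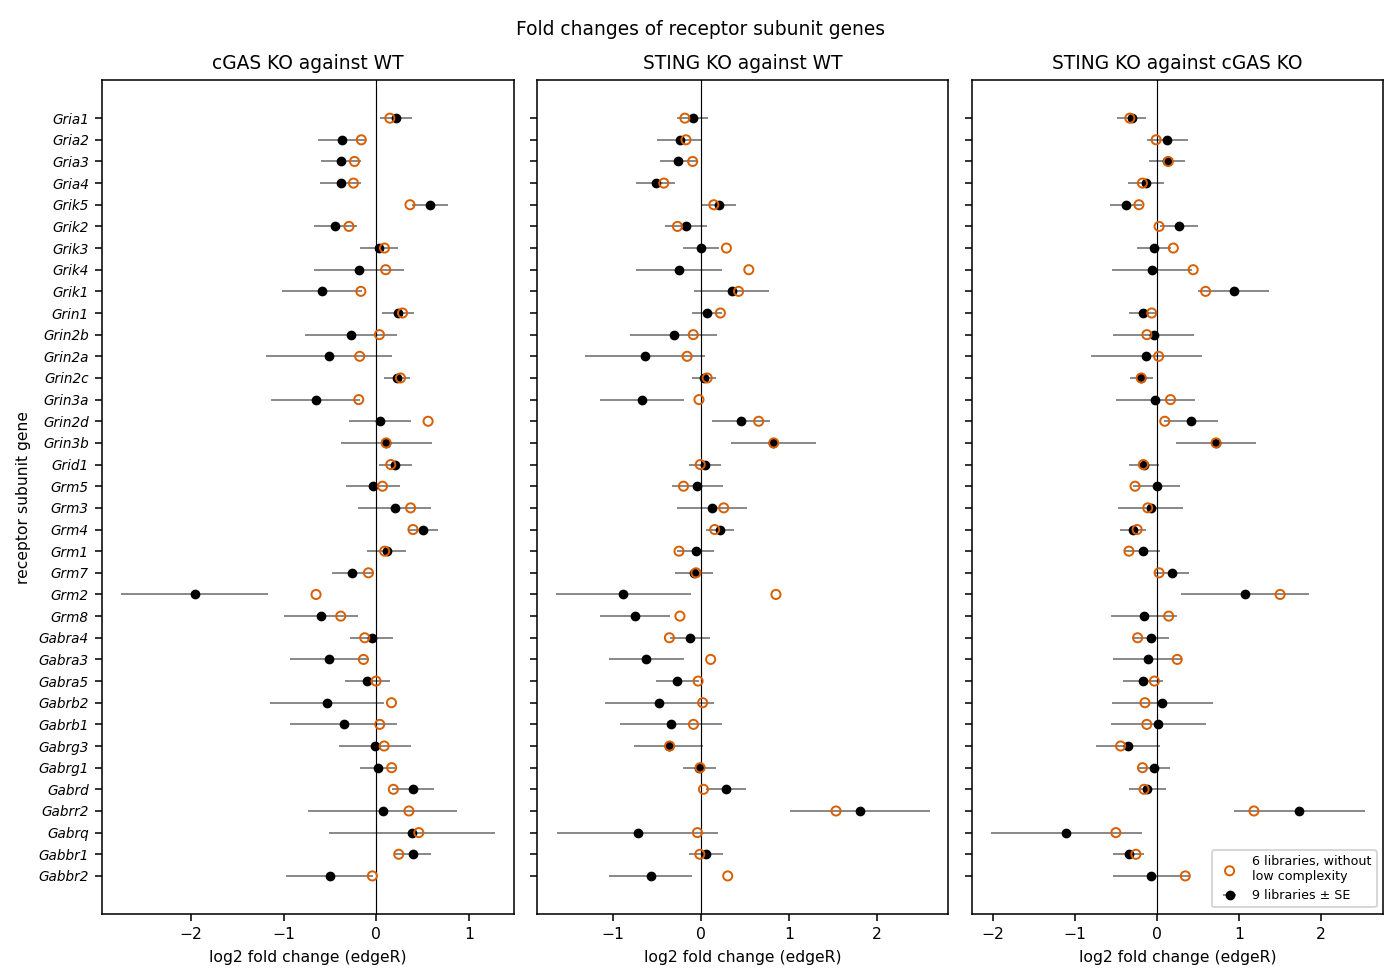
Log2 fold changes of 36 receptor genes in 3 comparisons, from edgeR. Black points with bars are values over 9 libraries ± SE, and open orange circles are values without the 3 libraries of low complexity. Genes run down the page by receptor class. The black points of Grin2a, Gabrb2 and Grin3a against WT lie left of 0 and the orange circles nearer to it.

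Between the knockouts, Gabrr2 and Grik1 had the smallest p among genes higher in STING KO than in cGAS KO, and Grik5 among those lower. By edgeR 0 of 40 receptor genes were called, and 0% of all genes. DESeq2 and limma-voom, without and with library quality weights, also called 0 receptor genes, where over all genes they called 8, 0 and 29. Grik1, a kainate subunit of interneurons, was at 6.47, 11.4 and 6.15 CPM in STING KO, against 5.74, 4.23 and 2.56 CPM in cGAS KO. No STING KO library overlapped a cGAS KO library. The log2 fold change was 0.94 (SE 0.43, edgeR unadjusted p = 0.0575, adjusted p = 1). Without STING KO replicate 2 the value of Grik1 was 0.59. That of Gabrr2 was 1.74 (edgeR unadjusted p = 0.0548).

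Grik5 was at 430.3, 364.4 and 386.2 CPM in STING KO, against 425.4, 586.4 and 522.9 CPM in cGAS KO. STING KO replicate 1 and cGAS KO replicate 1 were close, and the log2 fold change was -0.38 (edgeR unadjusted p = 0.0803). Gabbr1 was at 925.9, 864.5 and 878.2 CPM in STING KO, all below the 934.2, 1233 and 1215 CPM of cGAS KO, with a log2 fold change of -0.34 (SE 0.19). Grin2c was likewise below in all STING KO libraries, with a log2 fold change of -0.19. Grm4 and Gria1 had log2 fold changes of -0.29 and -0.31, and Grin3b, Grm2 and Grin2d of 0.72, 1.08 and 0.42, which were 0.46 without cGAS KO replicate 1, 0.72 without STING KO replicate 1 and 0.20 without cGAS KO replicate 2.

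For 2 receptor genes (Grin3b and Grik1) all STING KO libraries lay above all cGAS KO libraries and for 2 (Grin2c and Gabbr1) below, where 3.63% and 3.72% of all genes did. None of the 40 had an unadjusted p under 0.05 in edgeR, where 0.825% of all genes did on the higher and 0.623% on the lower side. Fold changes were positive for 11 of 40, against 51.1% of all genes, and the median was -0.08 beside 0.01 for all genes. Leaving out cGAS KO replicate 2 alone gave a median of 0.06. Without the 3 libraries of low complexity 16 of 41 were positive, against 50.8% of all genes, and the median was -0.11. There Grm2 was the 1 receptor gene higher at an unadjusted p under 0.05 and Gabrg3 the 1 lower, beside 1.99% and 1.7% of all genes, and 0 were called, where 0.017% of all genes were.

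The share of each subunit within its family was compared because such a share does not depend on library scaling. Over 8 shares and 3 comparisons, 24 exact two-sided permutation tests gave p = 0.10 or more, the smallest p that 3 libraries against 3 allow, and an adjusted p = 0.8 or more. Gria2 made up 29.8%, 27.3% and 26.6% of the TPM of Gria1 to Gria4 in cGAS KO, against 30.5%, 31.5% and 38.3% in WT. All cGAS KO libraries were lower, with a difference of -5.54 percentage points (exact permutation p = 0.10, adjusted p = 0.8). In STING KO the Gria2 share was 30.5%, 35.2% and 32.2%, also above all cGAS KO libraries, by 4.76 points (exact permutation p = 0.10, adjusted p = 0.8).

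Grik2 made up 45.9%, 42.4% and 47.2% of the TPM of Grik1 to Grik3 in cGAS KO, against 54.8%, 51.3% and 52.0% in WT. The difference was -7.50 points with no overlap (exact permutation p = 0.10, adjusted p = 0.8). In STING KO replicate 2 the Grik2 share was 59.4%, beyond all other libraries, while replicates 1 and 3 were at 44.0% and 42.5%. Grin2a, the NMDA subunit that takes over from Grin2b as synapses mature, made up 22.6% to 27.0% of Grin2a plus Grin2b in the 6 libraries of usual complexity and 29.3% to 35.9% in the 3 of low complexity. Gabbr1 made up 65.0% of Gabbr1 plus Gabbr2 in WT replicate 3 and 84.7% to 91.2% in the other 8 libraries, as Gabbr2 reached 347 CPM there against 80.1 to 186.9 CPM elsewhere.

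**Figure D4:**
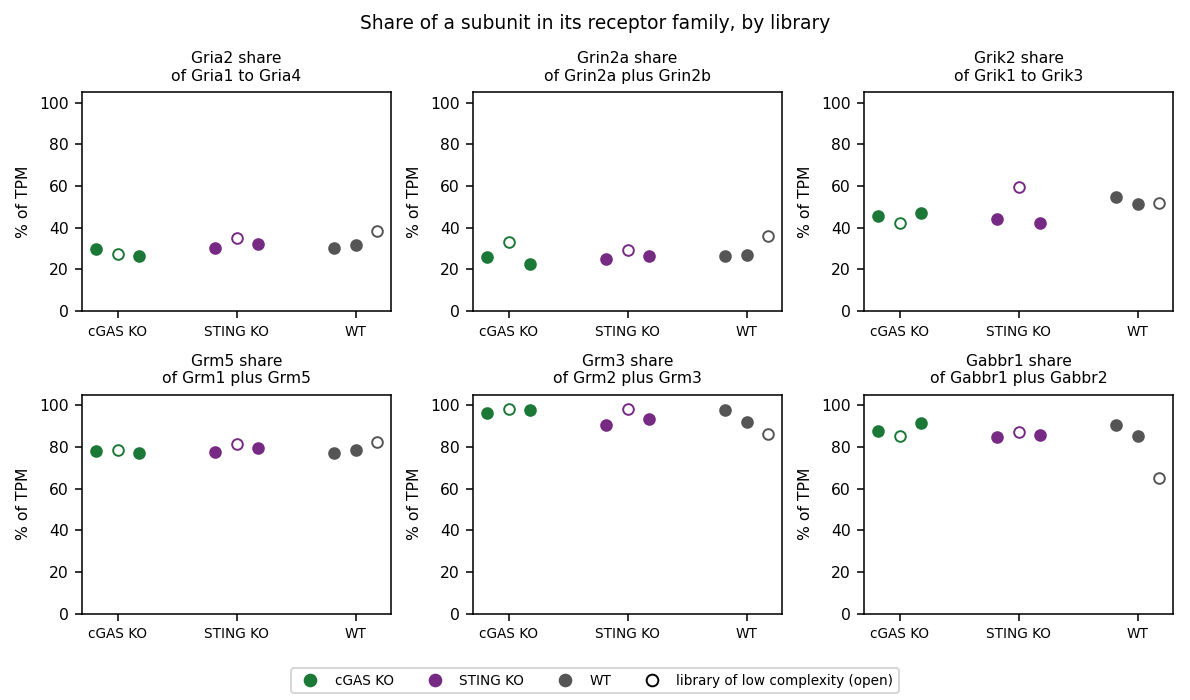
Share of 6 subunits in the TPM of their receptor family, in percent from 0, in each library of cGAS KO, STING KO and WT from left to right, with libraries of low complexity as open points. The Gria2 and Grik2 shares lie lower in all cGAS KO than in all WT libraries, and the Gabbr1 share of WT replicate 3 is 65.0%.

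Single libraries stood apart within their genotype for many receptor genes. WT replicate 3 was the highest of the 9 libraries for 22 of the 40 and the lowest for 5, and WT replicate 1 was the lowest for 13. Grin2a was at 104.5, 358.5 and 136.8 CPM in cGAS KO, at 121.8, 303.8 and 123.5 CPM in STING KO, against 116.1, 157.1 and 582.3 CPM in WT. The library of low complexity was the highest of its genotype each time. Grin2b was at 416.6, 989 and 648.1 CPM, at 501.7, 1017 and 478.6 CPM and at 451.7, 588 and 1438 CPM in the same order, with the same libraries highest.

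In 17 of the 40 receptor genes the library of low complexity lay above both other libraries of its genotype in all 3 genotypes, and in 0 it lay below both in all 3. Over all genes tested 20.6% were above and 23.7% below in this way. These libraries were defined by their number of genes with 1 to 9 counts and not by receptor genes. Among the 17 were Grin2a, Grin2b, Grin3a, Gabrb1, Gabrb2, Gabrg3, Gria2 to Gria4, Grik2, Grm3, Grm5 and Grm7. Across the genotypes the median log2 difference from the mean of the other 2 libraries was 1.58 for Grin2a, 1.33 for Gabrb1, 1.24 for Gabrb2, 1.05 for Grin2b and 0.96 for Gabrg3. It was -0.17 for Grid1, -0.16 for Grik5, -0.06 for Gabbr1, -0.03 for both Gabrd and Grin2c, and 0.14 for Grin1, the shared NMDA subunit.

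The 17 genes had a median exon length of 10247 bases, against 5977 for the other 23. Within the 40 genes, the coding length of the 17 did not stand apart (medians of 2804 and 2820 bases). Their noncoding exon sequence was longer (medians of 7080 and 3187 bases). Among the 3640 protein-coding genes with the longest exons, of 6906 bases or more, 11 of 17 receptor genes were above both others in all 3 genotypes, and 46.3% of all such genes were. At 4522 to 6905 bases these were 5 of 17 receptor genes and 18.8% of all genes. At 2884 to 4521 bases they were 1 of 4 and 7.61%, and at 2883 bases or less 0 of 2 and 4.31%. Across the 40 genes Spearman's rho between exon length and the median difference was 0.443, and 0.548 across 14560 protein-coding genes. With coding length rho was 0.055 across the 40 genes but 0.45 across all protein-coding genes. With noncoding exon length it was 0.444 and 0.436. These are given as descriptions since genes of 1 library share its depth and its RNA. Grm3, with an exon length of 3049 bases, was the 1 gene under 4522 bases among the 17. Together the 45 genes took 0.872% to 1.02% of all counts in the libraries of low complexity and 0.660% to 0.742% in the other 6. What made these libraries differ was not tested.

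**Figure D5:**
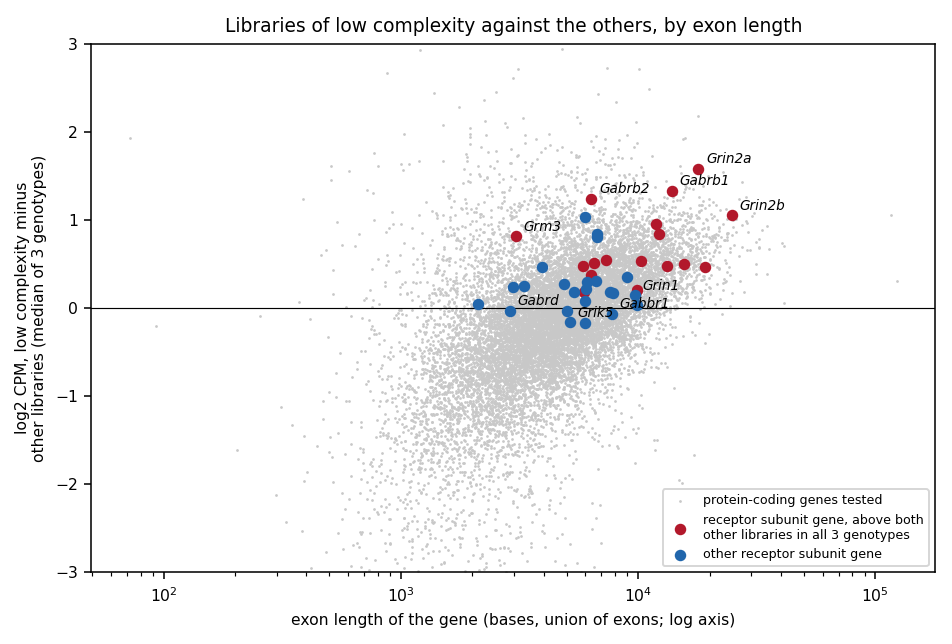
Difference in log2 CPM between the library of low complexity and the mean of the other 2 libraries of its genotype (median of 3 genotypes, vertical axis) against exon length in bases (horizontal log axis). Red points are the 17 receptor genes above both others in all 3 genotypes, blue points the other 23, and grey points the protein-coding genes tested, of which 73 lie beyond the plotted range of 3 log2 units. Red points lie mostly to the right, and Grin1, Gabbr1, Grik5 and Gabrd lie near 0.

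Genes that work with the receptors were described in 5 lists, and edgeR called 0 genes of any of them in the 3 comparisons. The 16 AMPA and kainate receptor auxiliary subunits, which set trafficking and gating, had 9 positive fold changes in cGAS KO, with a median of 0.06 against WT. In STING KO the count was also 9, and the median 0.03, or 7 and -0.04 without the libraries of low complexity. Cacng8, the TARP gamma-8 that carries AMPA receptors to the synapse, was at 84.3, 67.0 and 67.4 CPM in cGAS KO, at 85.8, 51.6 and 76.5 CPM in STING KO, against 51.5, 51.4 and 57.0 CPM in WT. All cGAS KO libraries lay above all WT libraries (log2 fold change 0.45, SE 0.21, edgeR unadjusted p = 0.0547). STING KO replicate 2 did not (log2 fold change 0.42, SE 0.21, edgeR unadjusted p = 0.0708).

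Of the 18 scaffold genes of glutamate receptors, 9 were positive in each comparison with WT. Without the libraries of low complexity 13 were positive in cGAS KO and 14 in STING KO, where the median was 0.18, against -0.02 over 9 libraries. Dlgap3, a scaffold enriched in striatal excitatory synapses, was at 795.9, 1023 and 993.4 CPM in cGAS KO, against 741.9, 680.4 and 454.8 CPM in WT, without overlap (log2 fold change 0.58, SE 0.23, edgeR unadjusted p = 0.0304, adjusted p = 0.9999). Without the libraries of low complexity the log2 fold change of Dlgap3 was 0.33 (edgeR unadjusted p = 0.101). Dlgap3 was lowest in WT replicate 3, as were 12 of the 14 markers of medium spiny neurons, and their part in its value was not tested. Of the 12 scaffold and auxiliary genes of GABA receptors, 7 were positive in cGAS KO and 8 in STING KO. Kctd12, an auxiliary subunit of the GABA-B receptor that speeds its desensitization, was at 70.0, 69.2 and 82.9 CPM in cGAS KO, at 55.1, 41.5 and 59.0 CPM in STING KO, against 56.6, 56.5 and 41.3 CPM in WT. The cGAS KO libraries were above all others.

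Against WT the log2 fold change of Kctd12 was 0.52 (SE 0.20, edgeR unadjusted p = 0.0253, adjusted p = 0.9999), and in STING KO against cGAS KO it was -0.51 (edgeR unadjusted p = 0.0278, adjusted p = 1). Kctd8, of the same family, had one of 0.55 in cGAS KO against WT (edgeR unadjusted p = 0.0294). In STING KO against WT, Homer2, a scaffold of metabotropic receptors, had a log2 fold change of -0.88 (edgeR unadjusted p = 0.115), which was -0.19 (edgeR unadjusted p = 0.506) without the libraries of low complexity. Homer2 was at 122.9 CPM in WT replicate 3, against 24.99 to 44.3 CPM in the other 8 libraries.

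Among the 7 genes of GABA synthesis and transport, 5 were positive in each comparison with WT, with medians of 0.16 in cGAS KO and 0.03 in STING KO. Without the libraries of low complexity these were 6 (median 0.11) and 3 (median -0.02). Slc32a1, the vesicular GABA transporter, was at 244.4, 148.6 and 209.6 CPM in cGAS KO, at 231.6, 129.7 and 204.6 CPM in STING KO, against 181.1, 174.1 and 89 CPM in WT, and the groups overlapped. Of the 9 genes of glutamate synthesis and transport, 2 were positive in cGAS KO against WT (median -0.37) and 1 in STING KO against WT (median -0.18). Without the libraries of low complexity these were 1 (median -0.06) and 4 (median -0.11). Slc17a6, the vesicular glutamate transporter of the thalamus, was at 3.60, 0.906 and 1.18 CPM in cGAS KO, against 2.21, 6.01 and 6.51 CPM in WT (log2 fold change -1.36, edgeR unadjusted p = 0.0731, and -0.76 without the libraries of low complexity). Slc1a2, the main astrocytic glutamate transporter, reached 6733 CPM in WT replicate 3, against 2834 to 4392 CPM in the other 8 libraries.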

How the data were processed

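Polyadenylated RNA of 9 striatum libraries was sequenced as paired reads, per the labels' protocols. The authors deposited whole-number counts per gene, 1 table per library, made with HISAT2 and featureCounts on mm10, per the submitters' processing notes. Versions, annotation and strand setting are not given, so overlapping genes are uncertain. Of the gene IDs, 54495 of 54532 matched GENCODE M21, and the 37 others held at most 0.0361% of the counts of a library. No 2 libraries of a group agreed within sampling noise.

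The main test was the quasi-likelihood F test of edgeR 4.0.16 (R 4.3.3) over all 9 libraries, with TMM factors and the filterByExpr filter, which kept 17821 genes. P-values were adjusted over these genes by Benjamini and Hochberg, with a threshold of 0.05, and each SE was taken from the fold change and its F statistic. TPM were computed from the counts with the union of GENCODE exons, and shares were tested by exact two-sided permutation. The methods were checked on simulated counts. Changes were put only into genes above a set mean level, which left out genes as low as Gabrr2 and Grin3b. Each gene was drawn independently, so differences between libraries that many genes share were not simulated. Of 2-fold changes, the main test recovered 4% in cGAS KO against WT, 9% in STING KO against WT and 8% between the knockouts. Of 4-fold changes it recovered 82%, 77% and 76%, so a gene that was not called may still have changed by 2-fold. Without the libraries of low complexity 76%, 67% and 72% of 2-fold changes were recovered, with 16, 14 and 21 calls among unchanged genes.

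Where fewer than 10 receptor genes were called, the rule named the 5 with the smallest p in each direction, the 2 highest in WT of each class, the genes removed by the filter and, of each linked list, the gene with the smallest p in each comparison. Others named in the section on low complexity and in counts of libraries that do not overlap were chosen after their values were seen. A few genes and 2 of the 8 shares were analysed but are not reported here. The receptor genes, the lists and the alternatives were chosen with earlier results of these data known. Alternatives were DESeq2 1.42.0 without a count filter, limma 3.58.1 (voom, with and without library quality weights), other scalings, other filters, fits of the 6 libraries compared alone, the replicate block, leaving out each library, and leaving out or adjusting for the 3 libraries of low complexity. The SDs and SEs include the spread between libraries, whereas the floor of 3 counts covers counting error only.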

Additional observations from a re-analysis of the deposited data

How the results depend on the processing

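Of 21 alternatives for each comparison, limma-voom with library quality weights in STING KO against WT called 1 receptor gene, Gria4, among 0.999% of all genes, and in all others the number called stayed at 0. Whether the number of a replicate pairs the libraries was not settled. Correlations of same-numbered deviations ran from -0.447 to 0.502, and from 0.327 to 0.502 for replicate 1. The libraries of low complexity enter those of replicates 2 and 3, so the check cannot decide. With the replicate block 0 receptor genes were called in each comparison, and the median log2 fold changes were -0.06 for cGAS KO over WT, -0.17 for STING KO over WT and -0.05 for STING KO over cGAS KO. The 5 genes that could not be tested had few counts, and whether depth limits them was not tested. The biological coefficient of variation of 38.8% over 9 libraries, against 17.2% without those of low complexity, limits the rest.

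Without the 3 libraries of low complexity the log2 fold change of Gabra3 in STING KO against WT was 0.11, of the opposite sign, and leaving out single libraries gave Grin3a there -1.02 to 0.12. The cause was not tested for these or for the shares below. Shares, none of which could pass the test, changed sign in 18 of 144 alternative values. Without those 3 libraries the differences in percentage points that changed sign were 0.348 for Gria2, -2.78 for Grm3 and -2.71 for Gabbr1 in STING KO minus WT, and 1.54 for Grin2a and -3.31 for Grik2 in STING KO minus cGAS KO. Leaving out single libraries, STING KO minus WT ranged from -2.24 to 1.63 for Gria2, -4.55 to 0.286 for Grin2a, -1.05 to 1.73 for Grm5, -0.728 to 4.99 for Grm3 and -2.03 to 10.7 for Gabbr1. In cGAS KO minus WT the ranges were -5.53 to 0.645 for Grin2a and -2.57 to 0.203 for Grm5. In STING KO minus cGAS KO they were -2.69 to 2.71 for Grin2a and -1.93 to 6.499 for Grik2. The Gria2 and Grik2 differences between cGAS KO and WT stayed negative in each of these.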
